A study of Mus musculus with 16 samples.

Results

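The genes described here are the replication-dependent histone genes of muscle stem cells (MuSCs). They were taken as every gene whose symbol begins with Hist1h, Hist2h, Hist3h or Hist4h, which gave 68 of the 24411 genes in the table. By histone type these are 6 genes of the linker histone H1, 18 of H2A, 19 of H2B (among them Hist3h2bb-ps, a pseudogene by its symbol), 12 of H3 and 13 of H4. The rule used names only, and no measured value. In GRCm38, 54 of them lie in the large cluster on chromosome 13, 10 on chromosome 3, 3 on chromosome 11 and 1 (Hist4h4) on chromosome 6.

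A dividing cell must wrap each new copy of its genome in new nucleosomes, and these genes supply most of that protein during S phase. The core histones H2A, H2B, H3 and H4 form the nucleosome and H1 binds the DNA between nucleosomes. Most replication-dependent histone mRNAs end in a conserved stem-loop in place of a poly(A) tail, where stem-loop binding protein (Slbp) binds, whereas replacement variants such as H3f3a, H2afz and H1f0 are polyadenylated and are made outside S phase as well. MuSCs are quiescent in undamaged muscle and enter the cell cycle after injury.

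MuSCs were sorted from mouse skeletal muscle and sequenced as total RNA in 16 libraries, 4 in each of 4 groups. The mice were control, recorded as wild type, or TRF2MuSC-cKO, in which a tamoxifen-inducible Cre expressed from Pax7 deletes floxed Terf2 in MuSCs, and all were kept on a C57BL/6 background. Muscle was uninjured or was taken 3 days after 10 µl of notexin, a snake toxin that destroys myofibers (3 DPI). The labels give no age. Terf2 encodes TRF2, a protein that protects chromosome ends. The design asks how TRF2 deletion changes gene expression in resting and in activated MuSCs. The libraries were made with random primers after removal of ribosomal RNA, so that mRNAs without a poly(A) tail were also read.

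Library totals ran from 620506 to 1351130 estimated counts. Genes with a count numbered 15389 in replicate 3 of the 3 DPI libraries labelled TRF2MuSC-cKO and at least 19996 in each of the other 15. Terf2 was at 64.6 to 94.2 CPM (counts scaled to the library size, with the TMM method of edgeR) in uninjured control MuSCs and at 27.0 to 58.4 CPM in uninjured TRF2MuSC-cKO MuSCs, without overlap (log2 fold change -0.62 ± 0.27 (SE), adjusted p = 0.199). At 3 DPI it was at 34.01 to 49.5 CPM in controls and at 50.8, 20.3, 59.1 and 82.2 CPM in the 4 libraries labelled TRF2MuSC-cKO, of which 3 were above every control (0.44 ± 0.42, adjusted p = 0.755). Terf2 is thus not lower with the genotype label at 3 DPI, and that group is called the libraries labelled TRF2MuSC-cKO throughout. Pax7, which defines MuSCs, was counted in every library, at 749 to 1439 CPM in uninjured control, 692 to 867 CPM in uninjured TRF2MuSC-cKO and 123 to 190.2 CPM in 3 DPI control MuSCs and at 23.7 to 122.0 CPM in the 3 DPI libraries labelled TRF2MuSC-cKO.

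The stem-loop is the feature that sets these mRNAs apart, and it is printed here because it divides the family. It was searched on the sense strand of GENCODE M21 transcripts as 16 bases that begin with GG and end with CC, in which the first 6 bases pair with the last 6 around a loop of 4 with T at loop bases 1 and 3. A match was found in 46 of the 68 genes and in 161 of 55271 other genes (0.291%). Transcript models that end at the stop codon, such as those of Hist1h2ai and Hist1h2bn, cannot hold one. The loop is in capitals.
Stem-loop of 26 H1, H2A, H2B and H3 genes: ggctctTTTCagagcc
Stem-loop of 6 H1, H2B and H3 genes: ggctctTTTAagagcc
Stem-loop of 7 H4 genes: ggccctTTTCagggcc
Stem-loop of 2 H4 genes, Hist1h4i and Hist2h4: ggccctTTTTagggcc
Stem-loop of 2 H4 genes, Hist1h4b and Hist1h4j: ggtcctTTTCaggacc
The first sequence is that of Hist1h1e, Hist1h1c, Hist1h1d, Hist1h2ao, Hist1h2ad, Hist1h3d and Hist2h3c2, and the third that of Hist1h4c and Hist1h4d, all described below. None of the 12 H4 genes with a match shared its stem with a gene of another type.

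The promoters divide along the same types. RefSeq promoters (250 bases before to 50 after the start, GRCm38.p6) were matched for 61 genes. The box CCAAT, read on both strands, was present in every promoter matched for H1 (6), H2A (17), H2B (16) and H3 (10) but in only 3 of 12 for H4, and in 37.4% of all 32851 promoters. GGTCCG was present in 11 of 12 H4 promoters against 8.25% of all, AAACACA in 5 of 6 H1 promoters against 7.18%, and the octamer ATTTGCAT in 7 of 17 H2A and 7 of 16 H2B promoters against 1.74%. The octamer was in no H1, H3 or H4 promoter. TATAAA was in 57.4% of the family's promoters and in 13.6% of all. The examples that follow have these letters in capitals, where ATTGG is CCAAT on the other strand. They were chosen because Hist1h1e is the gene called between genotypes in uninjured MuSCs and Hist1h4d the H4 gene called after injury. Hist1h2ak was chosen because it and Hist1h2bn, an H2A and an H2B gene, face away from each other across this window and both rose after injury.
Hist1h1e, chr13:23622509-23622808, minus strand: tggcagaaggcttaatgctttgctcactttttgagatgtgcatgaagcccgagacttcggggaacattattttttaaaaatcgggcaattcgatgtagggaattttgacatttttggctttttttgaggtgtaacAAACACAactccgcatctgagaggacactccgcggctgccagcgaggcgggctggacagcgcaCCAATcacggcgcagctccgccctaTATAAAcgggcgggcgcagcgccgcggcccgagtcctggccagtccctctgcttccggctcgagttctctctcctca
Hist1h2ak, chr13:21753863-21754162, minus strand: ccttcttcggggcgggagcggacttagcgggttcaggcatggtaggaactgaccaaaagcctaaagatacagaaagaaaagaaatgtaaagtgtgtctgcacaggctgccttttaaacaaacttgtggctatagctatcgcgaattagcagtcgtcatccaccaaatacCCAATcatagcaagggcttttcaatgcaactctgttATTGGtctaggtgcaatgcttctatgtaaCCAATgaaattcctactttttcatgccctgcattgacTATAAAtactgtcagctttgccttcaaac
Hist1h4d, chr13:23581318-23581617, plus strand: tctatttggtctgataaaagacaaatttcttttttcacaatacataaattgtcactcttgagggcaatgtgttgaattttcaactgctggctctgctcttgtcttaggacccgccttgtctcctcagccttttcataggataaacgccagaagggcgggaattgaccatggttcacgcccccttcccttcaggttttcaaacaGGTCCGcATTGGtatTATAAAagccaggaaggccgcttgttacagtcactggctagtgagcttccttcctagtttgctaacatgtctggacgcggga

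Many of these genes are near-identical copies. A median of 49.4% of the 50-base stretches of a gene's transcript also occurred in another gene, inside or outside the family. The median ran from 1.15% for H1 to 73.0% for H2A. Hist2h2bb, with 53.6%, shared none with another gene of the family. Of the values above 0 in this family, 77.3% were not whole numbers, as happens when the authors' quantification divides reads between copies, against 17.0% for all other genes (tolerance 0.0005). The values of single H2A, H2B, H3 and H4 genes are therefore uncertain, and the sum over each type is given beside them. A sum does not recover reads divided with genes outside the type. The H1 genes Hist1h1a and Hist1h1b shared no such stretch. Hist1h1e lies at chr13:23620629-23622558 and overlaps a long transcript model of Hist1h2be on the same strand, and 32.0% of its stretches were shared. These are bulk samples, in which fewer cycling cells, less histone mRNA per cycling cell and a different mix of cell types cannot be told apart.

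Per unit of length (TPM, a transcript level divided by length, from the rescaled table), Hist1h1e had the highest mean over all 16 libraries at 438 TPM, followed by Hist2h2aa1 at 312, Hist1h1c at 299 and Hist1h4d at 201 TPM. In uninjured control MuSCs Hist1h1e was at 429 ± 75.2 TPM (SD, n = 4), Hist2h2aa1 at 329 ± 98.4 and Hist1h1c at 214 ± 79.6 TPM. Neighbours in that order overlapped, at 343 to 494, 240 to 463 and 148 to 328 TPM. Of the 68 genes, 5 had a count in all 16 libraries and 1 (Hist2h3c1, all of whose stretches occur in other genes) had none. Genes with a count numbered 41 to 44 in uninjured control MuSCs, 30 to 37 in uninjured TRF2MuSC-cKO MuSCs, 58 to 60 in control MuSCs at 3 DPI, and 55, 47, 14 and 42 in the 3 DPI libraries labelled TRF2MuSC-cKO. The first 3 of these groups did not overlap each other. All 68 genes are shown in the map of levels by library.

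**Figure D1:**
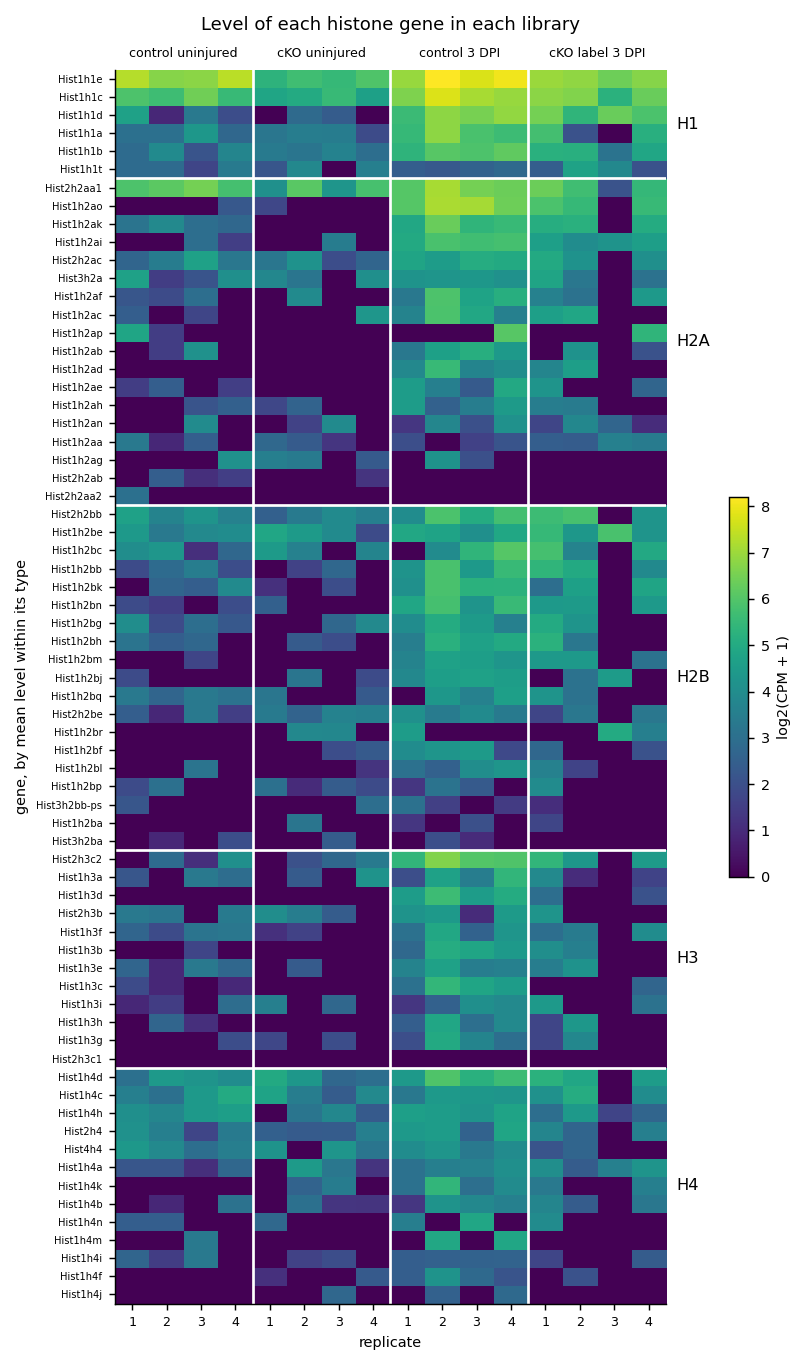
Level of each of the 68 genes (rows, by histone type and then by mean level) in each of the 16 libraries (columns, replicates 1 to 4 of each group), as log2(CPM + 1). The control libraries at 3 DPI have a count for 58 to 60 genes, and replicate 3 of the 3 DPI libraries labelled TRF2MuSC-cKO for 14.

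In control libraries every histone type was higher at 3 DPI than in uninjured muscle, and no 3 DPI library overlapped an uninjured one. Leukocyte markers were also higher in these 3 DPI libraries, at 4787 to 6506 CPM against 85.8 to 133 CPM. The part of other cells in the histone levels was not tested. Summed H3 was at 26.8, 26.0, 30.6 and 56.6 CPM in uninjured muscle and at 125.7, 388.9, 201.9 and 262.4 CPM at 3 DPI, 6.99-fold higher on the means. Summed H2B rose from 85.6 ± 19.4 (SD, n = 4) to 355 ± 99.0 CPM, 4.15-fold, and summed H2A from 139 ± 32.9 to 512 ± 151 CPM, 3.68-fold. H1 and H4 moved less, 2.58-fold and 2.21-fold: H1 from 228 ± 33.3 to 589 ± 187 CPM and H4 from 87.4 ± 11.5 to 193 ± 64.9 CPM. Replicate 1 was the lowest of the 3 DPI controls and replicate 2 the highest in all 5 types. The sample descriptions carry codes whose meaning the labels do not give. Within the 1 code that holds both control states, 1 uninjured against 2 injured libraries, the ratios were 2.5 for H1, 4.45 for H2A, 5.49 for H2B, 4.1 for H3 and 1.84 for H4. The sums carry no test.

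**Figure D2:**
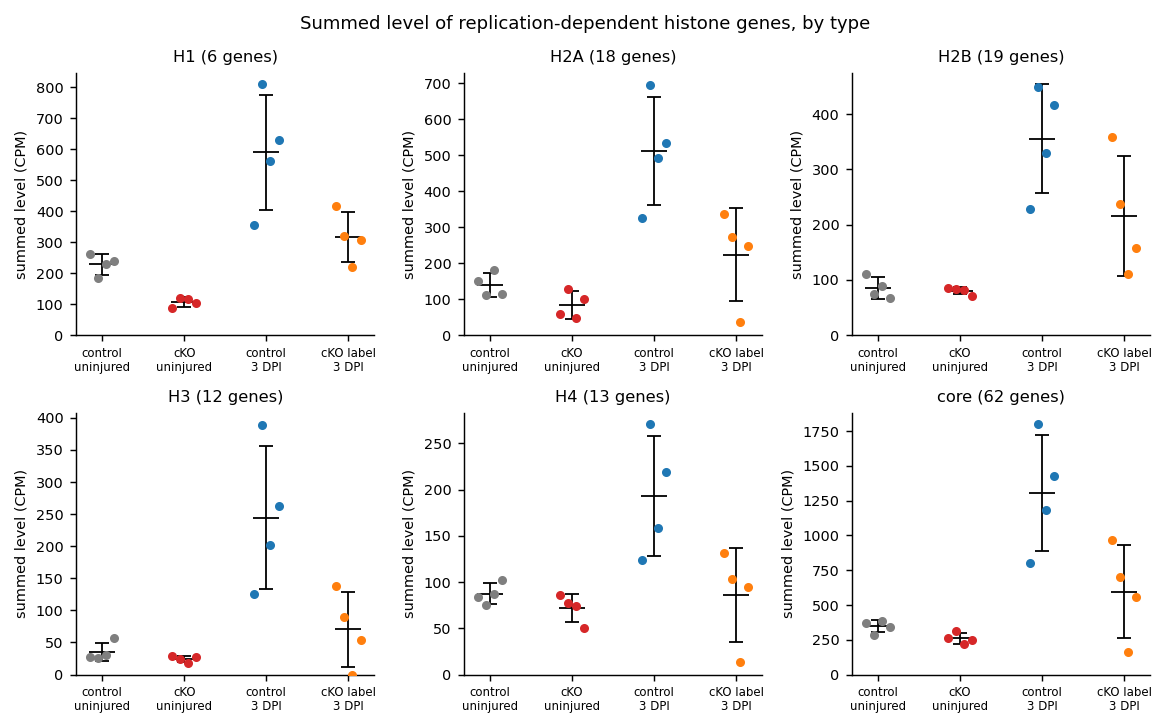
Summed level in CPM of the genes of each histone type and of the 4 core types together, in each library (points), with the mean and SD of each group of 4 (bars). Every control library at 3 DPI lies above every uninjured control library, and replicate 3 of the 3 DPI libraries labelled TRF2MuSC-cKO is the lowest of its group, with 0 CPM for H3.

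Gene by gene, 36 of the 68 passed the low-count filter in this comparison, and 21 of these were called higher and 0 lower (edgeR's quasi-likelihood test, adjusted p under 0.02 and fold over 1.5). Of all 15356 genes tested, 10.8% were called higher and 9.46% lower. Genes that passed only because they were high at 3 DPI had to differ, so the count over all genes is given too: in 29 of the 68 every 3 DPI control library lay above every uninjured one, against 9.12% of the 23576 genes with a count, and in 0 below it, against 7.73%. By type the calls were 5 of 5 tested for H1, 6 of 10 for H2A, 7 of 12 for H2B, 2 of 4 for H3 and 1 of 5 for H4. The median log2 fold change of those tested was 2.20, and that of all genes 0.07.

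Among the H1 genes, Hist1h1b was at 6.25, 14.4, 3.40 and 12.3 CPM in uninjured controls and at 39.9, 66.9, 59.6 and 73.0 CPM at 3 DPI. The groups did not overlap, with a log2 fold change of 2.71 ± 0.37 (SE, adjusted p = 9.5e-08). Hist1h1a was at 7.15, 7.18, 19.3 and 5.66 CPM and then at 44.4, 112.5, 56.5 and 48.4 CPM (2.78 ± 0.39, adjusted p = 1.9e-07). Hist1h1d rose from between 0.897 and 25.0 CPM to between 47.3 and 117 CPM (3.28 ± 0.62, adjusted p = 0.0028), a call made under 14 of 16 alternatives and lost without uninjured control replicate 3 (adjusted p = 0.0272) and with the replicate block (adjusted p = 0.0899). The abundant pair rose less. Hist1h1c went from between 45.3 and 85.03 to between 97.6 and 217 CPM (1.29 ± 0.24, adjusted p = 4.96e-05), and Hist1h1e from 158, 105.0, 110.0 and 163 CPM to 123, 296, 212 and 262 CPM, with overlap (0.75 ± 0.21, adjusted p = 0.00676). The call of Hist1h1e was made under 8 of 17 alternatives, and leaving out any of 4 libraries (uninjured replicates 2 and 3, 3 DPI replicates 2 and 4) lost it, with adjusted p between 0.0297 and 0.0754. The testis-specific H1 gene Hist1h1t was too low to be tested and stayed between 2.27 and 9.43 CPM in all 8 control libraries.

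Among the H2A genes, Hist1h2ao was at 0, 0, 0 and 3.77 CPM in uninjured controls and at 65.1, 144, 136 and 83.2 CPM at 3 DPI (6.65 ± 0.51, adjusted p = 2.65e-13). Hist1h2ai was at 0, 0, 6.80 and 1.89 CPM and then at 31.1, 57.2, 50.5 and 54.4 CPM (4.55 ± 0.56, adjusted p = 1.33e-08). Hist1h2ad had no count in uninjured controls and was at 12.1 to 45.6 CPM at 3 DPI, at least 30.5-fold higher against a floor of 3 counts over the group. These 3 genes share 67.1% to 93.5% of their stretches with other genes. They had few or no counts in uninjured controls and passed the filter through the 3 DPI libraries, so they had to differ. The most abundant H2A gene in uninjured MuSCs, Hist2h2aa1, did not pass the test: it was at 53.8 to 88.4 CPM and at 65.1 to 140 CPM (0.49 ± 0.24, adjusted p = 0.147).

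Among the H2B genes, Hist1h2bn, the neighbour of Hist1h2ak, was at 2.68, 1.80, 0 and 2.83 CPM and then at 28.1, 54.3, 18.2 and 46.7 CPM (4.22 ± 0.55, adjusted p = 4.39e-08). Hist1h2ak on the other side of the shared window was at 5.66 to 13.5 CPM and then at 29.6 to 79.5 CPM, and was also called. Hist1h2bm and Hist1h2bj, with 3 or fewer counts in the 4 uninjured controls together, were 42.0-fold (95% exact counting interval 11.3 to 353) and 30.5-fold (10.1 to 151) higher on pooled counts. They and Hist1h2bn passed the filter through the 3 DPI libraries, so these genes had to differ. Hist2h2bb rose less (1.28 ± 0.38, adjusted p = 0.00957) and lost its call under 8 of 17 alternatives, among them without uninjured replicate 2 or 4 or 3 DPI replicate 2 or 4 (adjusted p between 0.046 and 0.0897). Hist1h2be, with the long second transcript model, was at 8.97 to 20.5 and 16.2 to 29.6 CPM (0.80 ± 0.41, adjusted p = 0.17). Hist1h2bc and Hist2h2be, known to be also made as polyadenylated transcripts, did not pass the test. For Hist2h2be the 3 DPI controls, at 9.34 to 16.3 CPM, nevertheless lay above all uninjured ones, at 0.897 to 9.07 CPM.

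Summed H3 had the highest ratio of the 5 types on the means of all libraries, though not within the single code, where H2B and H2A were above it, and 2 of its genes were called. Hist2h3c2 was at 0, 6.28, 1.13 and 16.0 CPM and then at 41.4, 101, 63.6 and 61.1 CPM (3.48 ± 0.58, adjusted p = 0.000204). Hist1h3d had no count in uninjured controls and was at 22.2, 48.5, 22.2 and 32.3 CPM at 3 DPI, at least 44.9-fold higher. It passed the filter through the 3 DPI libraries and had to differ. Hist1h3a stood just outside the threshold, with an adjusted p of 0.020003 (2.10 ± 0.68), at 0 to 9.07 and 2.96 to 41.6 CPM. It was called under 5 alternatives, among them without uninjured replicate 3 and without 3 DPI replicate 1 or 3.

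The H4 genes moved least, and 1 of 5 tested was called. Hist1h4d was at 7.15, 20.6, 18.1 and 15.1 CPM and then at 20.7, 61.1, 36.3 and 48.4 CPM (1.47 ± 0.38, adjusted p = 0.00234). It lost its call under 4 of 16 alternatives, one of them without 3 DPI replicate 2 (adjusted p = 0.0345). Hist1h4c was at 7.18 to 31.1 CPM and at 8.87 to 20.4 CPM (-0.02 ± 0.46, adjusted p = 0.988), and its sign turned under 6 alternatives. The H4 sum rose through genes below the filter as well: Hist1h4k and Hist1h4f had no count in uninjured controls and were at least 25.9-fold and 10.8-fold higher at 3 DPI.

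The 13 pairs of an H2A and an H2B gene that face away from each other, 172 to 305 bases apart (the closest being Hist3h2a with the pseudogene Hist3h2bb-ps), did not always show the same call. Both genes of the pair passed the filter and were called higher only for Hist1h2ak with Hist1h2bn. In 6 pairs 1 gene was called and its partner was not called or not tested, as for Hist1h2ao, called, and Hist1h2bq, not called (0.86 ± 0.61). The partners Hist1h2bl, Hist1h2ah, Hist1h2ag and Hist1h2bf were below the low-count filter, so no difference within those pairs was shown. With no filter edgeR also called Hist1h2bf (log2 fold change 6.84, adjusted p = 1.89e-06) and Hist1h2ah (2.80, adjusted p = 0.00351) higher, but not Hist1h2bl or Hist1h2ag. The part of reads shared between copies in the unequal calls was not tested.

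In the libraries labelled TRF2MuSC-cKO, the injury comparison rests on whether replicate 3 is counted. This library held 0 CPM of H3, 13.1 of H4, 37.2 of H2A and 111 of H2B, and 221 CPM of H1, each the lowest of its group. Of its H1, Hist1h1e gave 83.2 and Hist1h1d 79.9 CPM. With it, 12 genes were tested and 1, Hist1h1d, was called higher and 0 lower (2.43% of all genes were called higher and 1.61% lower). Without it, 5.16% of all genes were called higher and 3.3% lower, and of 21 histone genes tested 0 were called lower and 10 higher: Hist1h1b, Hist1h1c, Hist1h1d, Hist1h1e, Hist1h2ak, Hist1h2ao, Hist1h2bb, Hist1h2bn, Hist2h2bb and Hist2h3c2. Hist1h1d was at 0, 6.13, 4.28 and 0 CPM in uninjured TRF2MuSC-cKO MuSCs and at 89.2, 40.7, 79.9 and 58.7 CPM at 3 DPI (4.61 ± 0.77, adjusted p = 0.00178). Hist1h1e went from 39.0 to 60.7 CPM across uninjured libraries to 83.2 to 126 CPM, without overlap (1.17 ± 0.29, adjusted p = 0.0295). Without replicate 3 its adjusted p was 0.00235.

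The sums followed. With all 4 libraries, H1 and H2B at 3 DPI lay above the uninjured TRF2MuSC-cKO libraries without overlap (2.96-fold and 2.68-fold on the means), and H2A, H3 and H4 overlapped (2.67-fold, 2.86-fold and 1.19-fold). Without replicate 3 no type overlapped, at 3.26-fold for H1, 3.41-fold for H2A, 3.12-fold for H2B, 3.82-fold for H3 and 1.53-fold for H4. Over all 68 genes, 3 (Hist1h1d, Hist1h1e and Hist1h2ai) were higher without overlap with replicate 3 included, against 3.8% of genes with a count (6.09% were lower). Some of the 10 genes called without replicate 3, such as Hist1h2ak and Hist1h2ao, had almost no counts in uninjured TRF2MuSC-cKO MuSCs and passed the filter through the 3 DPI libraries, so they had to differ. Over all 68 genes, 14 were higher without overlap and 0 lower when replicate 3 was left out, against 7.48% and 7.82% of genes with a count, where 3 libraries also overlap less readily than 4. Replicate 3 held counts for 9 core histone genes, with the most for Hist1h2be at 56.9, Hist1h2br at 31.8 and Hist1h2bj at 21.9 CPM. The 1 code that holds both states has 1 uninjured library (replicate 4) against 2 injured ones, replicates 3 and 4. Within it H1 was 2.52-fold and H2B 1.87-fold higher without overlap, and H2A, H3 and H4 overlapped (1.41, 1.01 and 1.08). Replicate 3 lay below the uninjured library in H2A, H3 and H4. Injured replicate 4 lay above it, at 247.8, 54.5 and 95.05 CPM against 101.1, 26.96 and 49.88 CPM.

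Between genotypes at 3 DPI, no gene passed the test. Of the 34 genes tested, 31 had a log2 fold change below 0, with a median of -0.99 against 0.00 for all 14559 genes. Some of the 34, such as Hist1h3d, passed the low-count filter through the 3 DPI controls, where they were high, so that their direction was partly fixed by the filter. None was called by edgeR's quasi-likelihood test, as for the whole table (0.0% called), and by DESeq2 the number was also 0, whereas limma called 1, Hist2h3b. At an unadjusted p under 0.05 there were 5 of the 34, against 9.36% of all genes tested: Hist1h3d, Hist1h1e, Hist1h2ai, Hist1h1b and Hist2h3c2. In 9 of the 68 the libraries labelled TRF2MuSC-cKO lay below every control (5.04% of genes with a count) and in 1, the testis-associated Hist1h2aa, above (1.6%).

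The summed levels overlapped between genotypes for every type. Core histones together were at 804, 1802, 1182 and 1431 CPM in controls and at 965, 704, 161 and 554 CPM in the libraries labelled TRF2MuSC-cKO, 2.19-fold lower on the means with all libraries and 1.76-fold lower without replicate 3. H3 was at 245 ± 111 and 70.5 ± 58.1 CPM, 3.47-fold lower, or 2.6-fold without replicate 3. H1 was 1.86-fold lower, H2A 2.28-fold, H4 2.25-fold and H2B 1.65-fold. Within the 1 code found in both genotypes at 3 DPI, with 2 libraries each, the core histones were 1.56-fold lower with overlap. Other sums moved in the same libraries. MuSC markers were at 815 to 1294 CPM in controls and at 427 to 608 CPM in the libraries labelled TRF2MuSC-cKO, without overlap. Replication-independent histone variants were at 650.5 to 1005 and at 416.1 to 628.8 CPM, also without overlap. Leukocyte markers overlapped, at 4787 to 6506 and at 1946 to 5677 CPM.

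Hist1h3d, which passed the filter through the controls, was at 6.77, 0, 0 and 3.20 CPM against 22.2 to 48.5 CPM (-3.47 ± 0.90, adjusted p = 0.452, from 0.0448 to 0.939 over the alternatives). Hist1h2ai was at 23.7, 14.98, 17.5 and 23.5 CPM against 31.1 to 57.2 CPM (-1.11 ± 0.40, adjusted p = 0.465), again without overlap. Hist1h1b was at 36.1, 35.3, 7.67 and 27.8 CPM, all below the lowest control at 39.9 (-1.01 ± 0.45, adjusted p = 0.524). Hist1h2ao at 58.7, 43.9, 0 and 44.9 CPM also lay below its lowest control at 65.1 CPM (-1.40 ± 0.68, adjusted p = 0.543). Hist1h1e, at 126, 116, 83.2 and 104 CPM, overlapped the controls at 123 to 296 CPM in 1 library (-0.89 ± 0.27, adjusted p = 0.452). Hist2h3c2 overlapped likewise (-1.57 ± 0.71, adjusted p = 0.524). Hist1h2be went the other way, at 18.2 to 56.9 against 16.2 to 29.6 CPM (0.63 ± 0.50, adjusted p = 0.708). In counts simulated for this comparison, 8.5% of genes changed by 2 on the log2 scale were recovered, among genes that passed the filter.

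**Figure D3:**
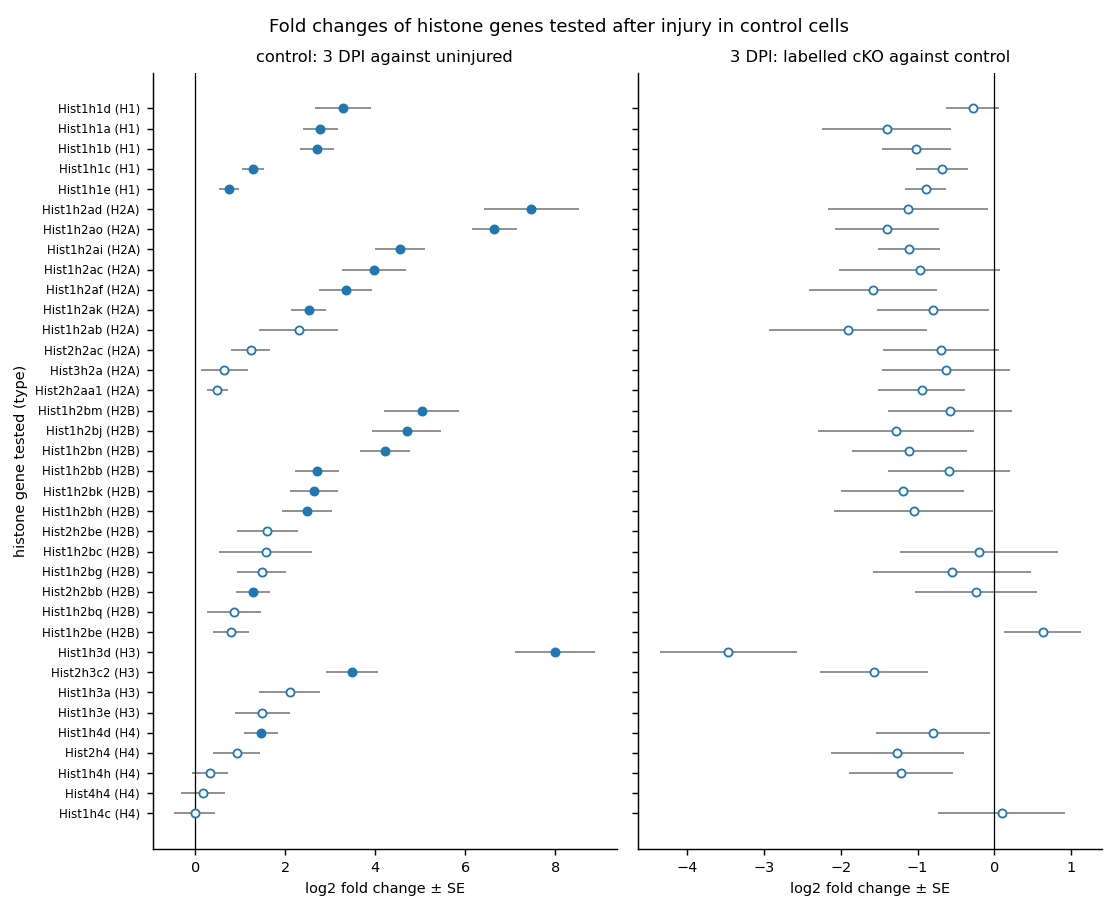
Log2 fold change with SE (edgeR) of the 36 histone genes tested after injury in control MuSCs, in that comparison (left) and, where tested, between genotypes at 3 DPI (right). Filled points were called. All but Hist1h4c are above 0 on the left, and Hist1h4c and Hist1h2be are above 0 on the right. Hist1h2ad and Hist1h3d have no count in uninjured controls, so their fitted values on the left depend on the prior count. Both comparisons use the same 3 DPI control libraries.

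In uninjured MuSCs, 1 histone gene, Hist1h1e, was called between genotypes, and of the type sums that of H1 did not overlap. Summed H1 was at 263, 183, 229 and 239 CPM in control and at 87.4, 121, 116 and 105 CPM in TRF2MuSC-cKO MuSCs, 2.13-fold lower and without overlap. The core types overlapped: H2A was 1.66-fold lower, H3 1.42-fold, H4 1.21-fold and H2B 1.07-fold. On the TPM scale the H1 sum in TRF2MuSC-cKO was 0.580 of the control and the core sum 0.895, and the H4 sum turned to 1.02. Of 11 genes tested, 1 was called lower (2.63% of all 14048) and 0 higher (0.584%).

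Hist1h1e was the gene called. It was at 158, 105.0, 110.0 and 163 CPM in uninjured control MuSCs and at 39.0, 51.1, 44.2 and 60.7 CPM in TRF2MuSC-cKO MuSCs, so the highest of the latter was below the lowest control (-1.34 ± 0.24, adjusted p = 0.00028). The call was lost with limma (adjusted p = 0.0222) and in the rescaled table (adjusted p = 0.0291), and adjusted p ran up to 0.0291 over all alternatives. Hist1h1c was at 45.3 to 85.03 CPM and at 27.2, 31.7, 45.6 and 24.3 CPM, with overlap (-0.79 ± 0.31, adjusted p = 0.141). Hist1h4h also had an unadjusted p under 0.05, at 12.6 to 23.6 against 0 to 12.8 CPM (-1.42 ± 0.64, adjusted p = 0.201), and was chosen here after its values were seen. Hist2h2aa1 fell into separate levels within the TRF2MuSC-cKO group, at 16.5 and 18.5 in 2 libraries and 68.4 and 55.3 CPM in the others, against 53.8 to 88.4 CPM in controls (-0.64 ± 0.33, adjusted p = 0.277).

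Over all 68 genes, 3 lay lower without overlap in uninjured TRF2MuSC-cKO MuSCs (5.5% of genes with a count; 3.39% were higher): Hist1h1e, Hist1h2ak and Hist1h3f. Hist1h2ak had no count in the 4 TRF2MuSC-cKO libraries and 5.66 to 13.5 CPM in the controls, at least 9.39-fold lower. It shares 52.3% of its stretches with other genes, among them 18 of the family, and was below the filter of the test. With no filter it was called (adjusted p = 0.00966). It had the smallest p in the test of whether the injury response differs between genotypes, with a log2 difference of 5.18 ± 1.65 (adjusted p = 0.589), a fitted value that depends on the prior count. With limma the difference was 1.90 (adjusted p = 0.000888) and was called. Hist1h2ak was at 32.0 to 36.4 CPM in 3 of the 4 injured libraries labelled TRF2MuSC-cKO and at 0 in replicate 3. None of 39 genes was called in that test by edgeR or DESeq2 (1 at an unadjusted p under 0.05, against 5.74% of all genes tested), limma called 3 (Hist1h2ak, Hist1h3d and Hist2h3b), and edgeR called 0.0178% of all genes. No description code occurs in both uninjured genotypes, so code and genotype cannot be told apart there.

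The rest of the histone supply was followed in lists written from textbook roles. Of 11 replication-independent variants, 5 rose after injury in controls and 1 fell, against 10.8% and 9.46% of all genes tested. H2afz, which encodes a replacement H2A at promoters, rose by 1.46 ± 0.26 on the log2 scale (adjusted p = 1.62e-05), H2afj by 1.23 ± 0.35 (adjusted p = 0.00682) and H3f3a by 0.69 ± 0.21 (adjusted p = 0.00956). H1f0, the linker histone of resting cells, fell by 0.67 ± 0.21 (adjusted p = 0.0144). In uninjured TRF2MuSC-cKO MuSCs H2afj was higher (1.39 ± 0.36, adjusted p = 0.014) and H3f3a lower (-0.98 ± 0.26, adjusted p = 0.0165). Most of these calls were fragile. Of the alternatives, 10 of 17 lost the call of H3f3a after injury (adjusted p up to 0.124), 10 of 17 that of H1f0 (up to 0.137) and 6 of 16 that of H2afj (up to 0.0692), some by leaving out a single library. Between uninjured genotypes 11 of 16 lost H2afj (up to 0.175) and 10 of 17 H3f3a (up to 0.0867). H2afz lost its call in 1 of 17 (adjusted p = 0.0534). The variants had 0 calls in the other genotype comparison and in the injury comparison of the libraries labelled TRF2MuSC-cKO.

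Replication-dependent genes took a larger share of H1, H2A and H3, the types with replacement variants listed here, after injury in control MuSCs. Of the per-length level of H3, counted with H3f3a and H3f3b, they made up 26.8% ± 7.13 (SD, n = 4) in uninjured control MuSCs and 62.5% ± 10.0 at 3 DPI, from 20.02 to 36.8% and from 53.2 to 75.5%, without overlap. In uninjured TRF2MuSC-cKO MuSCs the share was 29.6% ± 9.33 and in the 3 DPI libraries labelled TRF2MuSC-cKO 62.8, 49.1, 0 and 36.5%, which overlapped the uninjured libraries. For H1, counted with H1f0 and H1fx, it rose from 81.2% ± 2.94 to 93.8% ± 1.96 in controls, and from 77.7% ± 4.61 in uninjured TRF2MuSC-cKO MuSCs to 94.2% ± 1.99 in the 3 DPI libraries labelled TRF2MuSC-cKO, without overlap in either. For H2A, counted with H2afx, H2afz, H2afv, H2afy, H2afy2 and H2afj, the shares in controls were 73.1% ± 6.31 and 83.6% ± 2.20, from 65.3 to 80.4% and from 81.7 to 86.8%, without overlap. In uninjured TRF2MuSC-cKO MuSCs the H2A share was 51.8, 73.0, 45.1 and 63.3%. In the 3 DPI libraries labelled TRF2MuSC-cKO it was 81.9, 85.1, 37.3 and 80.3%, where replicate 3 lay below every uninjured library and the others lay above.

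**Figure D4:**
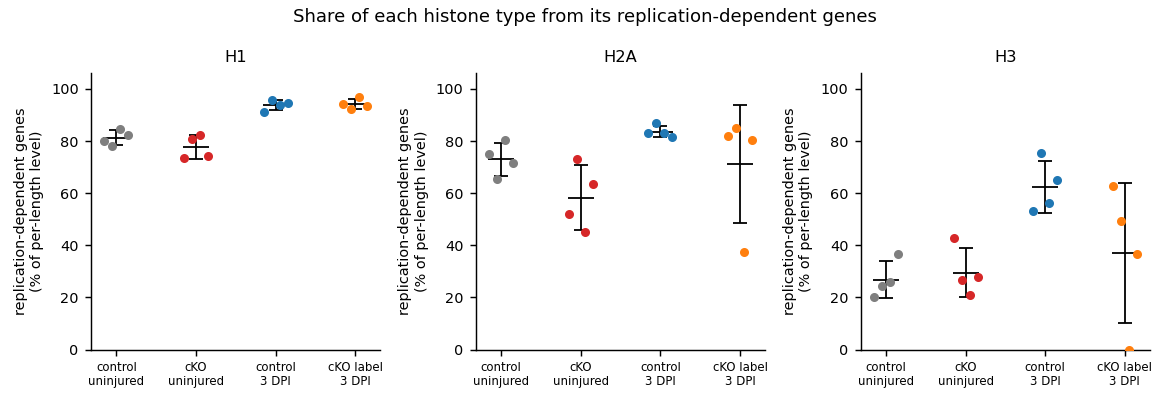
Percent of the per-length level (TPM) of H1, H2A and H3 that comes from replication-dependent genes, the rest being replacement variants, in each library (points) with the mean and SD of each group of 4 (bars). The H3 share in control MuSCs lies at 20.02 to 36.8% in uninjured muscle and at 53.2 to 75.5% at 3 DPI.

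Of 15 genes that transcribe and process histone mRNA and were tested in controls, 1 was called higher after injury. The share over all genes tested was 10.8%, and the list was not tested against it. The gene called was Eri1, a nuclease that trims the histone stem-loop (0.92 ± 0.30, adjusted p = 0.0181). Of the alternatives, 12 of 17 lost this call (adjusted p up to 0.132). In the other comparisons 0 genes of the list were called. Slbp was at 16.2 to 35.2 CPM in uninjured and 14.6 to 49.3 CPM in 3 DPI control MuSCs (0.27 ± 0.38, adjusted p = 0.693). Its log2 fold changes were 0.37 ± 0.65 after injury in the libraries labelled TRF2MuSC-cKO (adjusted p = 0.862), -0.42 ± 0.45 between uninjured genotypes (adjusted p = 0.639) and -0.27 ± 0.57 between genotypes at 3 DPI (adjusted p = 0.904). Npat, the activator of histone gene transcription, was at 25.1 to 45.4 CPM and 39.8 to 56.2 CPM in controls (0.41 ± 0.29, adjusted p = 0.349). In the same order its other values were -0.40 ± 0.45 (adjusted p = 0.759), 0.30 ± 0.32 (adjusted p = 0.638) and -0.50 ± 0.41 (adjusted p = 0.719).

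Of all genes tested after injury in controls, 10.8% were called higher and 9.46% lower, and histone chaperones were not tested against these shares. Of 20 chaperones tested there, Chaf1b, a subunit of the factor that loads new H3 and H4 at replication forks, rose (1.49 ± 0.38, adjusted p = 0.00219). Atrx and Ubn1, of the chaperone complexes for the H3 replacement variant, fell by 0.68 ± 0.19 (adjusted p = 0.00567) and by 0.61 ± 0.19 (adjusted p = 0.0167). Nap1l4, an H2A and H2B chaperone, was lower in uninjured TRF2MuSC-cKO MuSCs (-1.06 ± 0.27, adjusted p = 0.013). The alternatives kept Chaf1b in 16 of 17, but 8 of 17 lost Atrx (adjusted p up to 0.0348), 13 of 17 Ubn1 (up to 0.0774) and 10 of 17 Nap1l4 (up to 0.119). Of the S phase genes, 19 of 32 tested were called higher after injury in controls and 0 lower, led by Top2a (3.33 ± 0.27, adjusted p = 9.19e-14), Mki67 (2.48 ± 0.21, adjusted p = 4.36e-13) and Ccna2 (3.15 ± 0.39, adjusted p = 8.63e-09). In the libraries labelled TRF2MuSC-cKO, Mki67 and Top2a were called among 27 tested, and between genotypes at 3 DPI 0 of 31. Summed S phase genes were at 621 to 785 CPM and 1758 to 2385 CPM in controls, at 652 to 814 CPM in uninjured TRF2MuSC-cKO MuSCs and at 1221 to 1693 CPM in the 3 DPI libraries labelled TRF2MuSC-cKO. Replicate 3 of the latter, with the fewest histone counts, was not the lowest of its group for S phase genes, at 1317 CPM.

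Markers of other cells moved with injury in the same libraries. The sort removed cells that carry CD45, CD31, CD11b or Sca1, yet 13 leukocyte markers summed to 85.8 to 133 CPM in uninjured controls, 144 to 204 CPM in uninjured TRF2MuSC-cKO, 4787 to 6506 CPM in 3 DPI controls and 1946 to 5677 CPM in the 3 DPI libraries labelled TRF2MuSC-cKO. Of 10 tested in controls 9 were called higher after injury, among them Lyz2, Cd68 and Ptprc, which encodes CD45, and of 9 tested in the libraries labelled TRF2MuSC-cKO 8 were. Of the 6 markers of fibroadipogenic progenitors, 5 were called higher and 1 lower after injury in controls. In the libraries labelled TRF2MuSC-cKO 1 (Col1a1) was called higher after injury. Between uninjured genotypes Dcn was called higher and Dpt lower in TRF2MuSC-cKO MuSCs. Of endothelial and pericyte markers, Tek and Acta2 were called lower after injury in controls, and Rgs5 and Cspg4 higher in uninjured TRF2MuSC-cKO MuSCs. Schwann cell and red cell markers had 0 calls in any comparison, but 4 Schwann cell markers summed to 326 to 449 CPM in uninjured TRF2MuSC-cKO MuSCs against 222 to 291 CPM in uninjured controls, without overlap, beside the lower H1 sum. Markers of MuSCs fell, with 9 of 10 called in controls and 7 of 10 in the libraries labelled TRF2MuSC-cKO, and 7 of 10 were also lower in uninjured TRF2MuSC-cKO MuSCs than in controls. Replicate 3 of the libraries labelled TRF2MuSC-cKO was the lowest of its group in leukocyte markers, at 1946 CPM, as it was in core histones. The part of these cells in the histone levels was not tested.

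**Figure D5:**
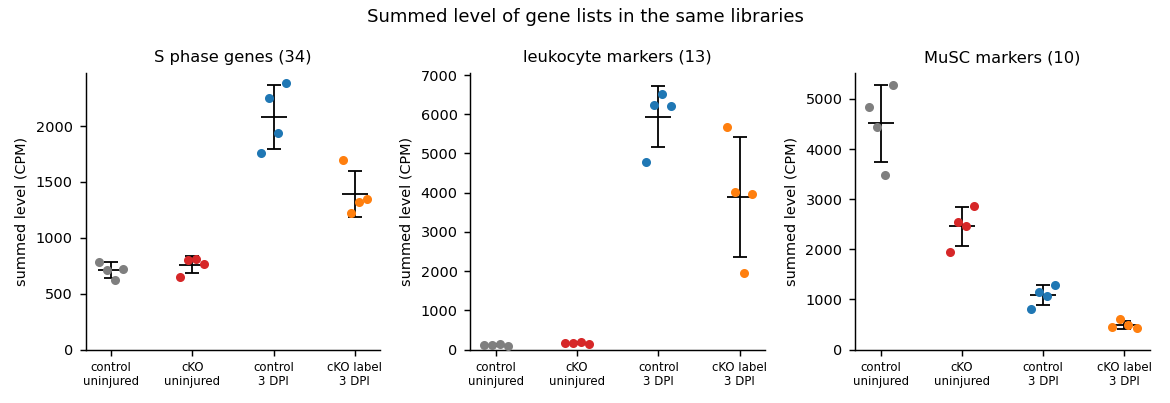
Summed level in CPM of 34 S phase genes, 13 leukocyte markers and 10 MuSC markers in each library (points), with the mean and SD of each group of 4 (bars). S phase genes and leukocyte markers are higher in every 3 DPI library than in any uninjured one, and MuSC markers are lower.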

How the data were processed

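Total RNA of sorted MuSCs was sequenced in 16 libraries (4 groups of 4, from the labels). Per the submitters' processing notes the tools were Trim Galore 0.6.7, STAR 2.6.1d and Salmon 1.5.2. The authors deposited estimated (expected) counts per gene on Ensembl GRCm38, and a second table of estimated counts rescaled from transcript abundance, used here for TPM and as an alternative. The library kit adds molecular identifiers, and whether reads were collapsed by them is not given in the sources used here. Intervals cover counting error only. Estimated counts were rounded.

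Each comparison of 8 libraries was fitted in edgeR 4.0.16 (R 4.3.3), with its filterByExpr step for low counts, TMM library sizes and the robust quasi-likelihood test, with Benjamini-Hochberg adjustment over all genes tested. The interaction used all 16 libraries. Calls needed an adjusted p under 0.02 and a fold over 1.5. The standard error is the log2 fold change divided by the square root of the test statistic. Type sums add CPM and have no test. The labels do not say that replicates came from separate animals, so p-values measure the spread between these samples. No replicate pair of a group agreed within sampling noise.

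On simulated data, genes changed by 2 on the log2 scale were recovered in 86.5% (uninjured genotype comparison, 13312 genes), 8.5% (3 DPI genotype, 13720), 84.8% (control injury, 14539) and 31.2% (injury in the libraries labelled TRF2MuSC-cKO, 13521), and those changed by 1 in 25.5%, 1%, 19.6% and 1.1%. The changed genes were drawn from those that passed the low-count filter and lay above a minimum mean count. The rates do not cover histone genes below these limits. Sequences are from GENCODE M21 and RefSeq.

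Named were the top 2 genes of each type by mean CPM, up to 3 called genes per type and comparison, genes with a testis or polyadenylated form, Terf2, Slbp, Npat and up to 3 called genes of each list. Others, such as Hist1h4h, Hist1h2ak and Hist1h3a, were named after their values were seen. The genes and lists were chosen with earlier results of these data known. Alternatives were limma 3.58.1, DESeq2 1.42.0, other scalings and filters, one fit of all libraries, a replicate block, the rescaled table and leaving out each library.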

Additional observations from a re-analysis of the deposited data

Results flagged for a closer look

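Dixon's test was applied to 164 groups of 4 libraries. They covered the sums of the 5 histone types, of the core types and of all, and the genes named with values. For normally distributed values the test flags about 1 in 20. With 3 libraries at 0 it flags any count in the other, as for Hist1h2ao, so that share does not hold for genes near 0. In 14 groups 1 library lay far from the other 3. In uninjured control MuSCs these were replicate 4 for summed H3 (56.6 CPM) and for Hist1h2ao (3.77 CPM), and replicate 3 for Hist1h1a (19.3 CPM) and Ubn1 (133.8 CPM). In uninjured TRF2MuSC-cKO MuSCs they were replicate 1 for Hist1h2ao (2.36 CPM), Hist1h2bn (4.73 CPM) and Slbp (5.91 CPM), and replicate 3 for Hist1h2ai (9.98 CPM) and Npat (29.9 CPM). In control MuSCs at 3 DPI it was replicate 1 for Hist1h4c (8.87 CPM). In the 3 DPI libraries labelled TRF2MuSC-cKO they were replicate 3 for Hist1h2bn and Hist1h2ak (both 0.0 CPM) and H1f0 (21.9 CPM), and replicate 1 for Hist1h3a (13.55 CPM).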

How the results depend on the processing

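Over the alternatives, 79 of 92 recomputed counts of called genes stayed within 1.5 times the main count. Outside the injury comparison of controls the main count was 0 or 1, so staying within that range there meant no change at all. In the injury comparison of controls 21 genes were called; DESeq2 called 20 and limma 23, of which 20 and 18 were shared with the 21, and requiring 10 counts in every library left 6 genes tested and 3 called. Leaving out each library gave 20 to 29. In the libraries labelled TRF2MuSC-cKO, 1 gene was called; limma, DESeq2 and no filter called 3, library size alone and the minimum of 10 counts 2, all 16 libraries in one fit 7, 0 with the rescaled values, and leaving out each library 1 to 10, where the 10 came without replicate 3 at 3 DPI. Between uninjured genotypes limma called 0 and no filter 2 in place of 1. Between genotypes at 3 DPI limma called 1, and in the interaction 3, in place of 0. The cause was not tested.

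Library size alone and the rescaled table moved the uninjured log2 ratio of summed H1 to -0.825 and -0.787 and of summed core histones to -0.151 and -0.160, and the rescaled table moved summed H4 to 0.035. Chosen after seeing the data, the ratios within a description code moved after injury in controls to 2.457 for H2B and 2.036 for H3. In the libraries labelled TRF2MuSC-cKO they moved to 0.495 for H2A and 0.014 for H3, with replicate 3 as 1 of the 2 injured libraries. That library held 37.2 CPM of H2A and 0 of H3, and replicate 4, the other one, held 247.8 and 54.5 CPM. Without replicate 3 of the libraries labelled TRF2MuSC-cKO, 14 genes in place of 3 were higher without overlap. The sign of Hist1h4c after injury in controls turned under limma (0.088), library size alone (0.147), the replicate block (0.063) and without each of 3 libraries (range on leaving out each library -0.321 to 0.405). That of Slbp turned between genotypes at 3 DPI without control replicate 4 or the labelled replicate 3 (range -0.504 to 0.066), and after injury in controls without 3 DPI replicate 4 (range -0.106 to 0.493). Of the single-gene fold changes recomputed, 773 kept their sign and their side of the threshold, 118 lost a call, 18 gained one and 9 changed sign.

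Same-numbered libraries did not deviate together (correlations from -0.11 to 0.11), so the numbers were not read as pairs. With the replicate block 19 genes were called after injury in controls (18 shared), and 1, 0, 1 and 0 in the other comparisons and the interaction. The library totals leave most single H2A, H2B, H3 and H4 genes near or under 10 counts in uninjured libraries.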
